A study of Homo sapiens with 27 samples.

Results

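HMGCS1, IDI1, FDFT1, SQLE, INSIG1, SREBF1, SREBF2 and FASN are genes of sterol and fatty acid synthesis that were followed through prostate cancer cells depleted of CPSF1. They were taken by name, 8 of the 20268 genes listed in any of the deposited tables, and all 8 were listed in each of the 4 tables and in all 27 libraries. Poly(A)-ClickSeq (PAC-seq), which sequences where a poly(A) tail begins, had been run on 3 human prostate cancer cell lines. LNCaP cells grow in response to androgen, whereas LNCaP95 and 22Rv1 cells are models of castration-resistant disease. Each line carried an integrated lentiviral short hairpin RNA, which was CTRL sh (control), CPSF1 sh1 or CPSF1 sh2, and each of the 9 groups had 3 libraries named BR1 to BR3. All groups, controls included, had thus been transduced and selected in puromycin (2 µg/mL for LNCaP and 22Rv1, 1 µg/mL for LNCaP95) as stable pools, were seeded at 500000 cells per well in RPMI 1640 with 10% fetal bovine serum and were collected 72 h later. The LNCaP95 medium lacked phenol red.

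CPSF1 belongs to CPSF, the protein complex that recognizes the poly(A) signal at the end of a pre-mRNA. Cholesterol is built from acetyl-CoA through the mevalonate pathway to squalene, and palmitate is built from acetyl-CoA by fatty acid synthase. SREBP2, the product of SREBF2, is the main transcriptional activator of the sterol enzymes, SREBP1, the product of SREBF1, is the one mostly tied to fatty acid synthesis, and INSIG1 holds both in the endoplasmic reticulum when sterols are plentiful. In prostate cancer cells androgens are known to raise many of these lipogenic genes.

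The libraries held between 3452413 and 12425417 reads over the 4 tables, of which 1725670 to 6549383 lay in 3′ UTRs and 170330 to 728430 in the 10 kb regions downstream of them. Levels are given as CPM, the reads of a gene scaled to the reads of its library in the same table, and a gene was called when the Benjamini-Hochberg adjusted p of edgeR's quasi-likelihood test over all genes of the table was under 0.05. CPSF1 itself had 120.5 to 155.1 CPM in LNCaP control libraries against 52.5 to 87.8 CPM under knockdown, 69.7 to 110.1 against 37.8 to 67.1 CPM in LNCaP95, and 133.0 to 180.8 against 86.2 to 113.8 CPM in 22Rv1. It fell in each line in the 3′ UTR table (log2 fold change −1.19, −1.05 and −0.73, edgeR adjusted p = 8.3e-05, 3.0e-04 and 0.0164), with no overlap between control and knockdown libraries. All 8 luminal prostate markers examined, KLK3 among them, were above 10 CPM in every library, and the 3 basal markers summed to at most 6.04 CPM. The summed luminal markers moved with the knockdown: 5467 to 5520 CPM in LNCaP control libraries against 3911 to 4374 CPM under knockdown, 8425 to 9073 against 6084 to 7070 CPM in LNCaP95, and 3029 to 3248 against 3402 to 3885 CPM in 22Rv1. The neuroendocrine markers summed to 44.9 to 60.3 CPM in 22Rv1, nearly all from SYP, and the stromal markers to at most 43.2 CPM, mainly COL1A1. The part of these shifts in the results below was not tested. In 22Rv1, CTRL sh BR1 was the shallowest library of the study and had the lowest mean correlation with its own group (r = 0.948 across genes, log2 scale), and it deviated together with CPSF1 sh1 BR1 (r = 0.58 between their deviations from the group means). The knockdown tests of 22Rv1 were therefore repeated without those 2 libraries, a choice made after their values were seen, while in comparisons of controls or of hairpins each library was left out in turn. In bulk libraries such as these, fewer cells carrying a transcript and less transcript per cell cannot be told apart.

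The reads of each gene were assigned to the 3′ UTR, extended by 300 bases past the annotated end, to introns, to coding sequence (CDS), or to the 10 kb that follow the extended 3′ UTR. These regions are drawn on hg19, where the last 3′ UTR piece of HMGCS1 was chr5:43289197-43291232 on the minus strand, that of INSIG1 chr7:155099951-155102245 on the plus strand, that of IDI1 chr10:1085548-1087126 on the minus strand, that of SREBF2 chr22:42301444-42303612 on the plus strand, and those of SREBF1 and FASN chr17:17713413-17713826 and chr17:80035914-80037484, both on the minus strand. The 3′ UTR entries of SREBF1, SREBF2 and FDFT1 fell into 4, 11 and 8 separate stretches, and those of SQLE, INSIG1 and FASN into 2 each. The 3′ UTR counts of all these genes thus also covered internal ends, while HMGCS1 and IDI1 had 1 stretch each. Because CPSF reads the poly(A) signal, the signal that precedes the annotated end is shown for 4 of the genes with a match to AATAAA or ATTAAA in the last 40 bases. The signal is in capitals and the sequence runs 5′ to 3′ on the strand of the gene.
HMGCS1, chr5:43289502-43289531: ataactttgaAATAAAgttttagagaaatg
INSIG1, chr7:155101916-155101945: tttttacttttATTAAAggttcaaaaccaa
SREBF2, chr22:42303275-42303304: agacatattcAATAAAcacagattggtacc
FASN, chr17:80036216-80036245: gcctcccacaATTAAAccgcatgtgatctc
HMGCS1 and SREBF2 thus carried AATAAA, 25 and 28 bases before the annotated end, which 57.7% of 19539 genes had in the same window. INSIG1 and FASN carried the variant ATTAAA, 19 and 22 bases before it, and IDI1 and SREBF1 had neither hexamer in that window. Further AATAAA hexamers lay on the gene's strand in the downstream 10 kb region: 11 for HMGCS1, 7 for SQLE, 10 for INSIG1, 8 for IDI1, 5 for FDFT1, 29 for SREBF1, 1 for SREBF2 and 3 for FASN. The median over 15685 such regions was 9 with quartiles of 5 and 13, so SREBF1 lay above and SREBF2 and FASN below the middle range. Annotated neighbours within these regions lay on the opposite strand, while newer transcript models of HMGCS1 and IDI1 reach 1625 and 456 bases into the region.

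Sterol response elements are the sites where SREBPs bind promoters. Of the 8 genes, 5 had a promoter in the RefSeq table used (250 bases before to 50 after the start, GRCh38.p14), and the letters TCACNCCAC, searched on both strands, were found in that of SREBF2 alone, against 1.13% of 35116 promoters. The match is in capitals and begins 133 bases before the start.
SREBF2, chr22:41832962-41832991, plus strand: tgacgcgccaTCACCCCACgcaccgcttcg
A match of letters is a description of the sequence and no record of binding.

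To determine how far the lines differed before knockdown, the 9 CTRL sh libraries were compared in the 3′ UTR table. HMGCS1, IDI1 and FDFT1 were lowest in LNCaP and highest in 22Rv1, whereas FASN was highest in LNCaP95 and lowest in 22Rv1. Relative to LNCaP, 6 of the 8 genes were higher and 0 lower in LNCaP95, where 39.3% of all genes tested differed in either direction. In 22Rv1 against LNCaP, 6 were higher and 2 lower (47.2% of all genes), and in 22Rv1 against LNCaP95, 3 were higher and 3 lower (54.6% of all genes). The 3 comparisons share their control libraries, and p-values measure the spread between the BR libraries of a group, which the labels do not describe further. The median difference of the 8 genes was 0.68, 1.07 and 0.33 (log2) in the 3 comparisons, against 0.00, 0.02 and 0.02 over all genes.

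HMGCS1, which condenses acetyl-CoA units into HMG-CoA, had 99.2, 89.8 and 99.8 CPM in the LNCaP controls, 175.4, 145.6 and 174.1 CPM in LNCaP95, and 533.7, 464.7 and 493.2 CPM in 22Rv1. The lines did not overlap, and each step was called (log2 difference 0.56 ± 0.154 SE for LNCaP95 over LNCaP, edgeR adjusted p = 0.00851; 1.69 ± 0.155 for 22Rv1 over LNCaP95, adjusted p = 1.0e-07). IDI1, the isopentenyl diphosphate isomerase, had 30.5 ± 0.503 CPM in LNCaP (SD, n = 3), 74.3, 94.5 and 75.9 CPM in LNCaP95, and 106.6, 181.0 and 152.8 CPM in 22Rv1. It followed the same order without overlap, and both steps were called (adjusted p = 5.0e-05 and 1.5e-04), the log2 difference being 2.15 ± 0.18 from LNCaP to 22Rv1 and 0.95 ± 0.169 from LNCaP95 to 22Rv1. The latter was 0.39 (adjusted p = 0.0724) on the reads of the 4 tables summed. FDFT1, the squalene synthase, had 143.5, 162.5 and 135.9 CPM in LNCaP, 312.7, 291.7 and 284.4 CPM in LNCaP95, and 393.5, 441.0 and 593.9 CPM in 22Rv1. Again each step was called (0.79 ± 0.154 and 0.78 ± 0.153, adjusted p = 6.6e-04 and 3.5e-04). SQLE, which oxidizes squalene to its epoxide, had 17.9, 22.6 and 19.1 CPM in LNCaP, 44.2, 47.4 and 45.7 CPM in LNCaP95, and 31.9, 62.4 and 67.5 CPM in 22Rv1. It was higher in LNCaP95 than in LNCaP (0.98 ± 0.215, adjusted p = 0.00167), whereas 22Rv1 and LNCaP95 overlapped and did not pass the test (0.36 ± 0.206, adjusted p = 0.152). Without 22Rv1 CTRL sh BR1, the low library, that SQLE difference was 0.57 (adjusted p = 0.00607).

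INSIG1 had its highest controls in LNCaP95, with 401.9, 357.7 and 444.9 CPM, against 93.1, 117.9 and 113.1 CPM in LNCaP and 176.7, 199.0 and 232.8 CPM in 22Rv1. The groups did not overlap, and all 3 differences were called (1.68 ± 0.154 for LNCaP95 over LNCaP, 0.79 ± 0.153 for 22Rv1 over LNCaP and −0.89 ± 0.151 for 22Rv1 over LNCaP95). FASN, the fatty acid synthase, had 340.3, 388.1 and 348.4 CPM in LNCaP, 681.7, 501.3 and 582.0 CPM in LNCaP95, and 317.6, 269.9 and 257.0 CPM in 22Rv1. It was lower in 22Rv1 than in LNCaP95 (−0.96 ± 0.161, adjusted p = 7.7e-05). Its difference between LNCaP95 and LNCaP (0.50 ± 0.159, adjusted p = 0.0194) lost its call without LNCaP CTRL sh BR1 (0.49, adjusted p = 0.0584), LNCaP CTRL sh BR3 (0.47, adjusted p = 0.074) or LNCaP95 CTRL sh BR1 (0.36, adjusted p = 0.123). Likewise, the lower level of FASN in 22Rv1 than in LNCaP (−0.46 ± 0.16, adjusted p = 0.0248) was lost without LNCaP CTRL sh BR2 or BR3 or without 22Rv1 CTRL sh BR2 or BR3 (−0.49 to −0.39, adjusted p = 0.0501 to 0.103).

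SREBF1 had 105.5, 156.2 and 162.9 CPM in LNCaP, 182.8, 187.5 and 136.4 CPM in LNCaP95, and 69.0, 102.7 and 124.3 CPM in 22Rv1. LNCaP and LNCaP95 overlapped and did not differ beyond their spread (0.04 ± 0.195, adjusted p = 0.895). SREBF1 was lower in 22Rv1 than in LNCaP95 (−0.67 ± 0.199, adjusted p = 0.00922) and than in LNCaP (−0.63 ± 0.199, adjusted p = 0.0158), the latter being lost without LNCaP CTRL sh BR2 (−0.58, adjusted p = 0.0578) or BR3 (−0.52, adjusted p = 0.0806), or without TMM scaling (−0.46, adjusted p = 0.15). SREBF2 had 241.9, 252.5 and 241.6 CPM in LNCaP, 337.3, 290.2 and 274.3 CPM in LNCaP95, and 369.1, 326.0 and 337.3 CPM in 22Rv1. Of its differences, 22Rv1 over LNCaP was called (0.37 ± 0.144, adjusted p = 0.0427), and this call was lost when any of 6 of the 9 libraries was left out (0.28 to 0.40, adjusted p = 0.0542 to 0.122), which were the 3 LNCaP controls, LNCaP95 CTRL sh BR3 and 22Rv1 CTRL sh BR1 and BR3. The neighbouring steps of SREBF2 did not pass the test (0.08 ± 0.144, adjusted p = 0.712, and 0.30 ± 0.144, adjusted p = 0.09).

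**Figure D1:**
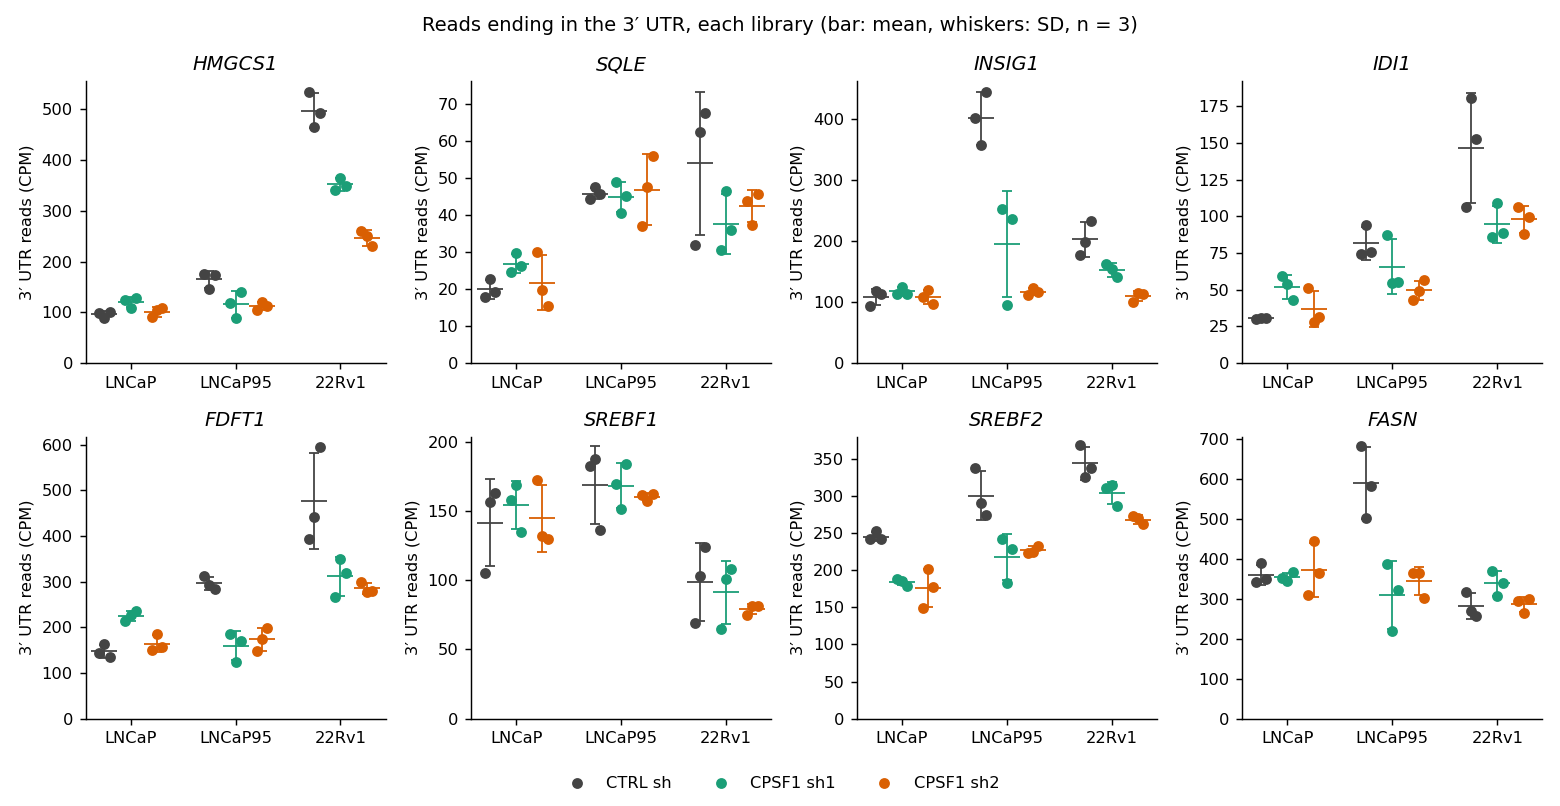
Reads ending in the 3′ UTR of the 8 genes (y axis, CPM of the 3′ UTR table, from 0) in each of the 27 libraries, grouped by cell line on the x axis and coloured by shRNA; points are libraries, bars means and whiskers SD (n = 3). HMGCS1 controls rise from 89.8 to 99.8 CPM in LNCaP to 464.7 to 533.7 CPM in 22Rv1, and INSIG1 controls of LNCaP95 (357.7 to 444.9 CPM) stand above all knockdown libraries of that line.

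To identify changes after CPSF1 knockdown, the 6 knockdown libraries of a line were compared with its 3 controls. In LNCaP95, 6 of the 8 genes fell in the 3′ UTR table (INSIG1, FASN, FDFT1, HMGCS1, IDI1 and SREBF2) and 0 rose, where 30.5% of all genes tested changed in either direction. In 22Rv1, 4 fell (HMGCS1, FDFT1, INSIG1 and IDI1) and 0 rose, against 1.47% of all genes. In LNCaP, SREBF2 fell and the 7 other genes were not called, against 18.3% of all genes. The median log2 fold change of the 8 genes was −0.66 in LNCaP95, −0.62 in 22Rv1 and 0.03 in LNCaP, beside 0.01, −0.01 and 0.02 over all genes. Without the 2 22Rv1 libraries that stood apart, 5 genes fell in that line, SQLE being added (−0.70, adjusted p = 0.00175). Calls over all genes rose as well, to 358 higher and 418 lower in place of 169 in either direction. The 22Rv1 count depended on single libraries, with 0 of the 8 called without CTRL sh BR3, 2 without CTRL sh BR2 and 2 without CPSF1 sh2 BR2. With CPSF1 sh1 alone 0 of the 8 were called (−0.54 for HMGCS1, −0.66 for FDFT1, −0.45 for INSIG1 and −0.68 for IDI1, adjusted p = 0.302 to 0.515), so that all 4 calls ended. That fit held 3 knockdown libraries in place of 6. With CPSF1 sh2 alone, a fit of the same size, the count stayed within 1.5 times the main count of 4. The cause of this difference was not tested. Compared directly, CPSF1 sh2 over CPSF1 sh1 stood at −0.58 for HMGCS1, −0.19 for FDFT1, −0.55 for INSIG1 and −0.01 for IDI1 (edgeR adjusted p = 0.134, 0.621, 0.199 and 0.98). The test of the difference between lines, over all 27 libraries, called 5 genes for LNCaP95 against LNCaP (10.3% of all genes), 3 for 22Rv1 against LNCaP (5.71%) and 2 for 22Rv1 against LNCaP95 (11.7%). These 3 comparisons share libraries with each other and with the tests within a line.

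HMGCS1 had 117.6, 88.8 and 140.6 CPM with CPSF1 sh1 and 105.2, 120.1 and 112.1 CPM with CPSF1 sh2 in LNCaP95. All 6 values lay below the controls given above, and the gene fell (−0.68 ± 0.143, edgeR adjusted p = 0.00155). In 22Rv1 it had 341.2, 365.2 and 349.8 CPM with CPSF1 sh1 and 260.9, 250.7 and 230.0 CPM with CPSF1 sh2, again all below the controls (−0.81 ± 0.163, adjusted p = 0.0183). The 22Rv1 call was lost without CPSF1 sh2 BR2 (−0.77, adjusted p = 0.0572) or CTRL sh BR3 (−0.84, adjusted p = 0.0798), and was −0.78 (adjusted p = 7.0e-04) without the 2 libraries that stood apart. In LNCaP the values were 124.0, 109.0 and 128.9 CPM with CPSF1 sh1 and 90.4, 105.1 and 108.5 CPM with CPSF1 sh2. They overlapped the controls and did not pass the test (0.10). The change was more negative than in LNCaP by 0.76 ± 0.187 in LNCaP95 and by 0.91 ± 0.185 in 22Rv1 on the log2 scale (adjusted p = 0.0074 and 0.00267).

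FDFT1 fell in LNCaP95, where knockdown gave 184.8, 124.1 and 169.0 CPM with CPSF1 sh1 and 147.9, 174.9 and 197.8 CPM with CPSF1 sh2. No library reached the controls of 284.4 to 312.7 CPM (−0.98 ± 0.133, adjusted p = 2.9e-05). In 22Rv1 it had 265.5, 348.8 and 319.2 CPM with CPSF1 sh1 and 298.5, 277.5 and 279.3 CPM with CPSF1 sh2, all below the controls (−0.76, adjusted p = 0.00636). That call was lost without CTRL sh BR3 (−0.59, adjusted p = 0.0757), the highest control, and was −0.83 (adjusted p = 4.0e-05) without the 2 libraries that stood apart. In LNCaP, by contrast, the values were 212.9, 226.8 and 235.0 CPM with CPSF1 sh1 and 149.8, 185.0 and 157.6 CPM with CPSF1 sh2. CPSF1 sh1 lay above all controls and CPSF1 sh2 overlapped them, and the pooled arm did not pass the test (0.29, adjusted p = 0.195), while CPSF1 sh1 alone did (0.47, adjusted p = 0.0102). The knockdown change differed from that in LNCaP by −1.25 ± 0.182 in LNCaP95 and −1.02 ± 0.181 in 22Rv1 (adjusted p = 2.3e-05 and 7.2e-04).

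IDI1 gave 87.4, 54.7 and 55.2 CPM with CPSF1 sh1 and 43.0, 49.1 and 56.5 CPM with CPSF1 sh2 in LNCaP95. All but the CPSF1 sh1 BR1 library lay below the controls, and the gene fell (−0.64 ± 0.167, adjusted p = 0.00721). In 22Rv1 the values were 85.7, 109.2 and 88.9 CPM with CPSF1 sh1 and 106.3, 88.3 and 99.8 CPM with CPSF1 sh2, with 5 of 6 below the lowest control (−0.69, adjusted p = 0.0153). The call was lost without CTRL sh BR2 (−0.55, adjusted p = 0.104) or BR3 (−0.68, adjusted p = 0.0822), and was −0.82 (adjusted p = 4.0e-05) without the 2 libraries that stood apart. In LNCaP the values were 59.2, 53.9 and 43.1 CPM with CPSF1 sh1 and 51.2, 28.1 and 31.6 CPM with CPSF1 sh2. These were above the controls for 5 of the 6 libraries (0.43, adjusted p = 0.113), and IDI1 was called without CPSF1 sh2 BR2 (0.51, adjusted p = 0.0304) or with CPSF1 sh1 alone (0.61, adjusted p = 0.00702). The difference from the LNCaP change was −1.06 ± 0.222 in LNCaP95 and −1.09 ± 0.22 in 22Rv1 (adjusted p = 0.00176 and 0.0026).

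SQLE passed the 3′ UTR test in none of the 3 lines. In LNCaP95 it had 48.8, 40.5 and 45.2 CPM with CPSF1 sh1, while CPSF1 sh2 BR1 was its lowest library and BR2 and BR3 had 47.6 and 55.9 CPM, spread around the controls (−0.14, adjusted p = 0.477). In 22Rv1 it had 30.6, 46.5 and 35.9 CPM with CPSF1 sh1 and 43.8, 37.4 and 45.7 CPM with CPSF1 sh2, which overlapped the controls through CTRL sh BR1 at 31.9 CPM (−0.54, adjusted p = 0.156), and without that library the gene was called (−0.75, adjusted p = 0.009). LNCaP libraries with knockdown ranged from 15.5 to 29.9 CPM and overlapped the controls (0.17).

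INSIG1 showed the most negative change of the 8 genes in LNCaP95, with 252.7, 95.6 and 237.1 CPM for CPSF1 sh1 and 112.0, 123.4 and 116.2 CPM for CPSF1 sh2. The lowest control had 357.7 CPM, so the groups were separate (−1.51 ± 0.238, adjusted p = 1.2e-04). In 22Rv1 it had 163.2, 154.6 and 140.4 CPM with CPSF1 sh1 and 100.9, 115.0 and 113.8 CPM with CPSF1 sh2, all below the controls (−0.71, adjusted p = 0.0434). The 22Rv1 call was lost when any library other than CTRL sh BR1 and CPSF1 sh1 BR1 was left out (−0.75 to −0.61, adjusted p = 0.0596 to 0.217), and was −0.86 (adjusted p = 1.5e-04) without those 2. In LNCaP all values with knockdown, 97.6 to 125.6 CPM, lay around the controls (−0.04). INSIG1 fell more in LNCaP95 than in LNCaP (−1.51 ± 0.242, adjusted p = 8.9e-05) and than in 22Rv1 (0.84 ± 0.239 for 22Rv1 over LNCaP95, adjusted p = 0.0199). The latter difference was lost without LNCaP95 CTRL sh BR1 (0.83, adjusted p = 0.051), LNCaP95 CTRL sh BR3 (0.77, adjusted p = 0.0588), 22Rv1 CTRL sh BR2 (0.79, adjusted p = 0.0578) or both libraries that stood apart (0.75, adjusted p = 0.0609).

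SREBF2 was the gene of the 8 that fell in LNCaP, where it had 188.0, 185.1 and 179.2 CPM with CPSF1 sh1 and 149.4, 201.2 and 176.8 CPM with CPSF1 sh2. All lay under the lowest control at 241.6 CPM (−0.56 ± 0.126, adjusted p = 0.00469). In LNCaP95 it had 241.9, 182.2 and 229.1 CPM with CPSF1 sh1 and 223.7, 225.2 and 232.9 CPM with CPSF1 sh2, also below every control (−0.58 ± 0.125, adjusted p = 0.0018). In 22Rv1 the values were 310.6, 314.8 and 286.6 CPM with CPSF1 sh1 and 273.3, 269.9 and 261.8 CPM with CPSF1 sh2. They too lay below the controls, but the gene did not pass the test there (−0.35, adjusted p = 0.187, and −0.30, adjusted p = 0.0928, without the 2 libraries that stood apart). None of the 3 differences between lines passed the test (−0.02 ± 0.164 for LNCaP95 over LNCaP, 0.22 ± 0.164 for 22Rv1 over LNCaP and 0.24 ± 0.163 for 22Rv1 over LNCaP95). SREBF1 was called in none of the lines. Its libraries with knockdown ranged from 129.6 to 172.5 CPM in LNCaP (−0.04), from 151.5 to 183.9 CPM in LNCaP95 (−0.18, adjusted p = 0.31) and from 65.0 to 107.9 CPM in 22Rv1 (−0.31, adjusted p = 0.456, and −0.42, adjusted p = 0.0776, without the 2 libraries that stood apart), overlapping the controls each time.

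FASN fell in LNCaP95 alone of the 3 lines, with 386.1, 218.2 and 320.2 CPM for CPSF1 sh1 and 363.3, 364.9 and 302.6 CPM for CPSF1 sh2. The lowest control had 501.3 CPM (−1.01 ± 0.155, adjusted p = 9.7e-05). LNCaP libraries had 350.5, 344.1 and 366.0 CPM with CPSF1 sh1 and 308.1, 443.4 and 363.2 CPM with CPSF1 sh2, and 22Rv1 libraries had 367.9, 306.7 and 339.3 CPM and 294.4, 264.1 and 297.9 CPM. Both sets overlapped their controls (−0.09 and 0.06), and the 22Rv1 value was 0.13 (adjusted p = 0.553) without the 2 libraries that stood apart. The FASN change in LNCaP95 differed from that in LNCaP (−0.91 ± 0.21, adjusted p = 0.0047) and from that in 22Rv1 (1.08 ± 0.211 for 22Rv1 over LNCaP95, adjusted p = 9.1e-04).

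**Figure D2:**
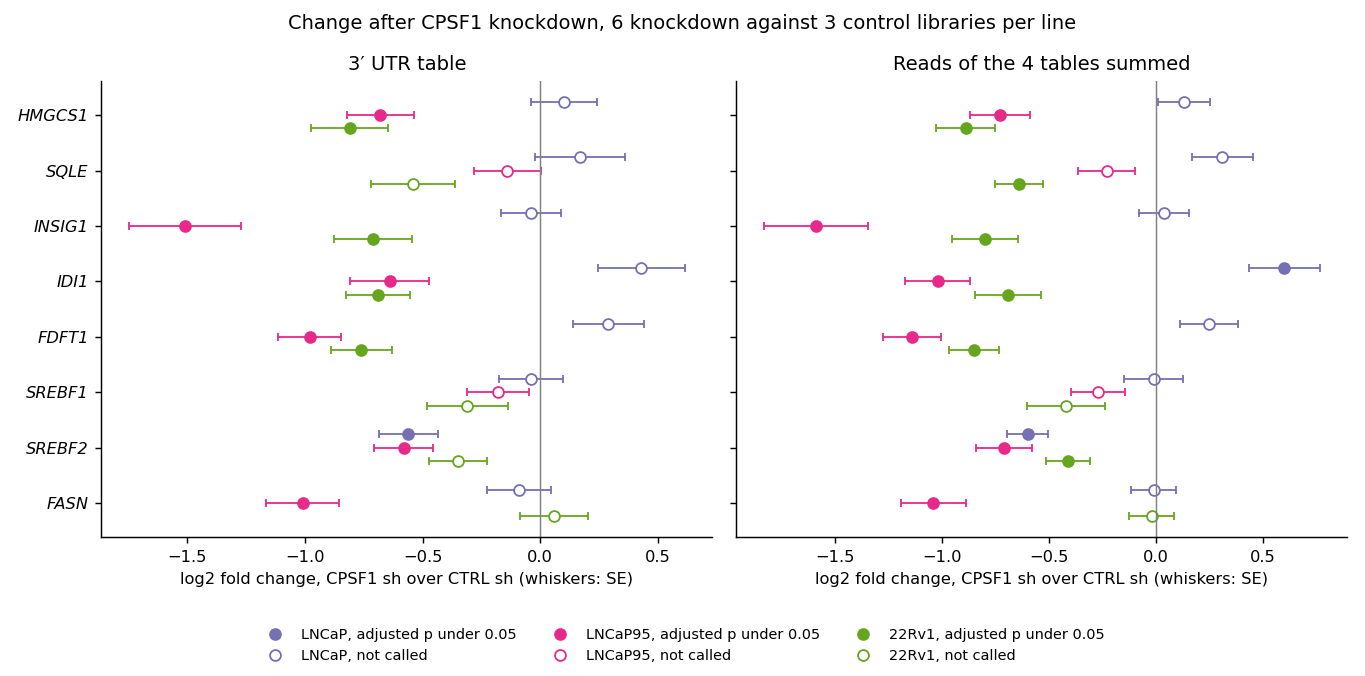
Log2 fold change of CPSF1 sh over CTRL sh libraries (x axis) for the 8 genes (y axis) in the 3′ UTR table and in the 4 tables summed; points are the estimate for 6 knockdown against 3 control libraries per line, whiskers SE, filled points adjusted p under 0.05. LNCaP95 and 22Rv1 points lie mostly left of 0, as for INSIG1 at −1.51 and −0.71, while in LNCaP SREBF2 lies at −0.56 and −0.60 and IDI1 at 0.43 and 0.60 in the 2 panels.

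When the reads of the 4 tables were added, the count of genes called rose or stayed equal in each line. In LNCaP95, 6 of the 8 fell (34.3% of all genes called), from −1.59 ± 0.242 for INSIG1 and −1.14 ± 0.137 for FDFT1 to −0.71 ± 0.129 for SREBF2. In 22Rv1, 6 fell (7.57% of all genes), which included SQLE (−0.64 ± 0.113, adjusted p = 0.00251) and SREBF2 (−0.41 ± 0.103, adjusted p = 0.0234). The SREBF2 call was lost without any one of the 3 CPSF1 sh2 libraries or CTRL sh BR3 (−0.40 to −0.38, adjusted p = 0.0526 to 0.096), that of IDI1 without CTRL sh BR2 or BR3 (−0.61 to −0.52, adjusted p = 0.0864 to 0.0916) and that of INSIG1 without CTRL sh BR3 (−0.65, adjusted p = 0.0541). Without the 2 libraries that stood apart 7 fell, SREBF1 being added (−0.58, adjusted p = 0.00331). The 7.57% belongs to the full set of libraries, and no share of all genes is given here for this smaller set. In LNCaP, IDI1 rose (0.60 ± 0.166, adjusted p = 0.0127) and SREBF2 fell (−0.60 ± 0.0964, adjusted p = 2.1e-04), against 27.5% of all genes called. The IDI1 call was lost without LNCaP CTRL sh BR1 (0.57, adjusted p = 0.0542) or BR2 (0.58, adjusted p = 0.0538).

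In LNCaP95, 6 of 8 fell in the intron table (23.8% of all genes called), and INSIG1 again moved most. It had 36.1, 17.6 and 20.9 CPM in the controls against 4.98, 3.27 and 3.32 CPM with CPSF1 sh1 and 6.13, 4.07 and 2.88 CPM with CPSF1 sh2 (−2.62 ± 0.335, adjusted p = 1.1e-06). FDFT1 had 163.2, 139.8 and 185.0 CPM against 67.2, 47.4 and 65.9 CPM and 51.8, 50.4 and 55.5 CPM (−1.58 ± 0.162, adjusted p = 2.6e-08), also without overlap. IDI1 (−1.36), FASN (−1.28) and SREBF2 (−0.73) fell as well, and HMGCS1 (−0.83, adjusted p = 0.0358) did so with a call that was lost without CTRL sh BR1 or BR3, CPSF1 sh1 BR2, or CPSF1 sh2 BR2 or BR3 (−0.81 to −0.67, adjusted p = 0.0551 to 0.182). In 22Rv1, 3 fell (4.37% of all genes), led by FDFT1 with 398.1, 269.4 and 317.9 CPM in controls against 210.2, 204.5 and 187.4 CPM and 173.9, 176.6 and 179.0 CPM (−0.91 ± 0.122, adjusted p = 3.7e-05). HMGCS1 (−0.80, adjusted p = 0.0181) lost its 22Rv1 call without any one control (−0.88 to −0.72, adjusted p = 0.0584 to 0.0638), and SQLE (−0.76, adjusted p = 0.0171) without CTRL sh BR1 (−0.57, adjusted p = 0.0983) or BR2 (−0.77, adjusted p = 0.0604). Without both libraries that stood apart, 4 fell, SREBF2 being added (−0.39, adjusted p = 0.0431). The 4.37% belongs to the full set of libraries, and no share of all genes is given here for this smaller set.

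In LNCaP the 2 transcription factor genes fell in the intron table (14.3% of all genes called). SREBF2 had 129.0, 193.3 and 164.4 CPM in controls against 96.1, 74.2 and 79.7 CPM with CPSF1 sh1 and 101.7, 101.1 and 103.0 CPM with CPSF1 sh2, without overlap (−0.76 ± 0.131, adjusted p = 9.9e-05). SREBF1 had 16.9, 26.6 and 19.1 CPM in controls against 10.0, 7.22 and 8.39 CPM and 5.71, 17.0 and 2.89 CPM, with 1 knockdown library reaching the controls (−1.36 ± 0.322, adjusted p = 0.00358). Set against the 3′ UTR reads of the same libraries, the ratio of intronic to 3′ UTR reads fell for SREBF1 in LNCaP (−1.35 ± 0.322, adjusted p = 0.0151; 3.69% of all genes called) and for INSIG1 in LNCaP95 (−1.07 ± 0.333, adjusted p = 0.0341; 14.1%). The SREBF1 ratio lost its call without CTRL sh BR1 or BR2 (−1.27 to −1.23, adjusted p = 0.0886 to 0.0937), and the INSIG1 ratio without CTRL sh BR1, CPSF1 sh1 BR1 or BR3, or CPSF1 sh2 BR3 (−1.04 to −0.79, adjusted p = 0.0649 to 0.191). In 22Rv1 this edgeR test called 0 of the 8 ratios (0.422% of all genes called), and 1 had an unadjusted p under 0.05. For SQLE, introns held 49.6 ± 8.45%, 47.5 ± 8.42% and 50.8 ± 20.9% of its control reads (SD, n = 3) in LNCaP, LNCaP95 and 22Rv1. In 22Rv1 CTRL sh BR1 the intronic share of SQLE was 74.9%, against 40.9% and 36.7% in the other controls.

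In the CDS table, IDI1 changed in opposite directions in 2 lines. In LNCaP95 it had 149, 122 and 201 CDS reads in the controls against 28, 27 and 35 with CPSF1 sh1 and 16, 41 and 33 with CPSF1 sh2. The groups were far apart (−2.27 ± 0.227, adjusted p = 3.2e-07). In LNCaP the direction was the opposite, with 14, 13 and 10 reads in controls against 36, 27 and 51 and 42, 37 and 17 with knockdown, all above the controls (1.75 ± 0.391, adjusted p = 0.00527). In 22Rv1 the IDI1 CDS reads overlapped (0.00 ± 0.317, adjusted p = 0.999, and −0.15, adjusted p = 0.92, without the 2 libraries that stood apart). Few of the other genes were testable in the CDS table, where 2, 4 and 3 of the 8 passed the filter in LNCaP, LNCaP95 and 22Rv1, and IDI1 was the only one called in LNCaP (7.1% of all genes called) and in LNCaP95 (12.5%). In 22Rv1 0 were called by edgeR (1.01% of all genes), 0 had an unadjusted p under 0.05 and DESeq2 called 0.

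The 10 kb regions hold reads that end past the annotated 3′ UTR. Over the 8 genes summed, 1.16 ± 0.257% of control reads lay there in LNCaP (SD, n = 3) and 2.3 ± 0.428% under knockdown (n = 6). The share moved from 0.963 ± 0.105% to 4.05 ± 1.07% in LNCaP95 and from 2.14 ± 0.767% to 2.99 ± 0.287% in 22Rv1. Over all genes the same shares were 4.88% and 6.28% (LNCaP), 3.62% and 6.01% (LNCaP95), and 4.66% and 5.87% (22Rv1), so the downstream share of the 8 genes was below that of all genes in each arm. Because the 10 kb reads grew as a whole, a change within the 10 kb table is relative to those other downstream regions: the median over its genes was 0.13, 0.22 and 0.19 (log2) in LNCaP, LNCaP95 and 22Rv1, and 0.62, 1.11 and 0.73 when libraries were scaled by the reads of the 4 tables with 3′ UTR factors. The calls of LNCaP95 were then 5264 higher and 240 lower, in place of 2600 and 1499.

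Within the 10 kb table, HMGCS1 and SQLE rose and FDFT1 fell in LNCaP95 (27.7% of all genes called). HMGCS1 had 6, 1 and 0 downstream reads in the controls against 22, 34 and 19 with CPSF1 sh1 and 11, 28 and 17 with CPSF1 sh2. The arms did not overlap (2.33 ± 0.62, adjusted p = 0.00227). Of the HMGCS1 control reads, 6 of 7 came from CTRL sh BR1, and the value was 4.35 without that library and 1.74 without CTRL sh BR3. SQLE had 8, 0 and 0 reads in the controls against 9, 26 and 19 and 24, 28 and 35 (2.25 ± 0.611, adjusted p = 0.00279). All SQLE control reads came from CTRL sh BR1, which held 24.2 CPM and overlapped the lowest knockdown library at 22.3 CPM; without it the remaining controls were at 0. IDI1 had 1, 2 and 3 reads in the controls against 6, 12 and 11 and 8, 14 and 15, all above in CPM, but did not pass the test (1.55 ± 0.706, adjusted p = 0.0909). FDFT1 had 50, 26 and 40 reads (151.2, 97.7 and 122.9 CPM) in the controls against 49, 32 and 53 (121.3, 69.1 and 118.8 CPM) with CPSF1 sh1 and 28, 28 and 25 (72.6, 55.2 and 57.6 CPM) with CPSF1 sh2. Its fall within the table (−0.93 ± 0.313, adjusted p = 0.0173) was lost without CTRL sh BR1 (−0.74, adjusted p = 0.126) or CPSF1 sh2 BR2 (−0.83, adjusted p = 0.0542), and with libraries scaled by all reads the value was −0.06 (adjusted p = 0.92). Under that scaling 6 of the 8 genes rose in LNCaP95, FASN at 0.93 (adjusted p = 0.00991) in place of −0.01.

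In LNCaP, SQLE and INSIG1 were called higher in the 10 kb table (14.7% of all genes called), both from controls at or near 0. Both passed the filter on low values only through the knockdown libraries, and neither was tested when more than 2 CPM was required in every library, so their values are a description. SQLE had 0, 0 and 0 reads in the controls against 3, 3 and 14 with CPSF1 sh1 and 8, 3 and 3 with CPSF1 sh2. Set against a floor of 3 reads per control library, this was at least 1.56-fold higher. INSIG1 had 0, 0 and 2 reads against 4, 5 and 18 and 3, 3 and 15, a ratio of 10.7 in CPM with a 95% counting interval of 2.81 to 90.9 (edgeR adjusted p = 0.0249). The INSIG1 call was lost without CTRL sh BR1 or BR2, CPSF1 sh1 BR3 or CPSF1 sh2 BR3 (adjusted p = 0.0529 to 0.152), and by DESeq2 (adjusted p = 0.0656). SREBF2 had 2 downstream reads in the controls and 3 under knockdown, too few to be tested. In 22Rv1, FDFT1 fell within the 10 kb table (9.99% of all genes called), with 593.0, 377.7 and 354.7 CPM in controls against 389.3, 304.5 and 279.7 CPM with CPSF1 sh1 and 156.5, 161.4 and 221.4 CPM with CPSF1 sh2. With CPSF1 sh1 alone FDFT1 was not called (−0.60, adjusted p = 0.136). One CPSF1 sh1 library overlapped the controls (−1.04 ± 0.208, adjusted p = 8.9e-05; −1.10, adjusted p = 3.1e-06 without the 2 libraries that stood apart), and with libraries scaled by all reads the gene was not called (−0.57, adjusted p = 0.061).

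The 10 kb reads of a gene set against its own 3′ UTR reads ask whether the balance of ends moved downstream. Such a ratio also rises where 3′ UTR reads fall and 10 kb reads do not change. This ratio rose for 5 of the 8 genes in LNCaP95 (28% of all genes called), with a median of 2.19 over the 8 beside 0.53 over all genes. With CPSF1 sh1 alone 2 of the 8 were called, HMGCS1 (3.33) and INSIG1 (2.00), and the calls of SQLE, IDI1 and FASN ended (adjusted p = 0.0669 to 0.0976). HMGCS1 moved from 0.244 ± 0.306% of its reads downstream in the controls to 4.93 ± 2.94% for CPSF1 sh1 and 3.91 ± 0.713% for CPSF1 sh2 (ratio 3.07 ± 0.621 on the log2 scale, adjusted p = 3.1e-04). INSIG1 moved from 0.18 ± 0.181% to 1.39 ± 0.941% and 2.99 ± 0.514% (2.55 ± 0.612, adjusted p = 0.00192). Within the 10 kb table INSIG1 overlapped its LNCaP95 controls and was not called (0.92 ± 0.64, edgeR adjusted p = 0.298). IDI1 moved from 0.326 ± 0.158% to 3.04 ± 1.52% and 5.0 ± 0.229% (2.25 ± 0.646, adjusted p = 0.00842). For these 3 genes the downstream share rose while the 3′ UTR reads fell. SQLE went from 0.523 ± 0.906% to 5.04 ± 3.14% and 8.54 ± 1.84% (2.48 ± 0.697, adjusted p = 0.00717; 1.84, adjusted p = 0.0543 without CTRL sh BR3). FASN went from 1.8 ± 0.563% to 6.31 ± 1.91% and 7.59 ± 1.95% (1.01 ± 0.316, adjusted p = 0.0157; 0.74, adjusted p = 0.124 without CTRL sh BR1). Within the 10 kb table FASN stood at −0.01 ± 0.268 in LNCaP95 (edgeR adjusted p = 0.988). Of these 5 genes, HMGCS1 and SQLE were also called higher within the 10 kb table. The ratio of FDFT1 did not pass the test (0.03 ± 0.36, adjusted p = 0.966), and its downstream share went from 2.08 ± 0.399% to 5.21 ± 0.313% and 3.83 ± 1.57%. SREBF1 (0.80 ± 0.448) and SREBF2 (2.14 ± 1.3, on 1 control read) did not pass the test. With libraries scaled by all reads, the median over all genes was itself 1.51. All 8 ratios were then called higher in LNCaP95. The share of all genes called under that scaling is not given here, so this count is not particular to the 8.

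In LNCaP the ratio was called higher for SQLE and INSIG1 (10.3% of all genes called), with the same limit of controls at or near 0. SQLE went from 0 to 2.51 ± 1.19% and 2.51 ± 0.967% of its reads downstream, a call that was lost without any one control library (adjusted p = 0.0502 to 0.0731). INSIG1 went from 0.129 ± 0.223% to 1.5 ± 0.774% and 1.68 ± 1.38% (3.09 ± 0.916, adjusted p = 0.0246), and was lost without CTRL sh BR1 or BR2 or CPSF1 sh1 BR3 (2.42 to 2.80, adjusted p = 0.0504 to 0.157). In 22Rv1 edgeR called 0 of the 8 ratios (7.45% of all genes called), with 3 at an unadjusted p under 0.05. HMGCS1, at 0.921 ± 0.423% in 22Rv1 controls and 2.18 ± 0.408% and 3.12 ± 0.447% under knockdown, had a ratio of 1.03 ± 0.336 (adjusted p = 0.0551), and IDI1, at 0.761 ± 0.182% and then 2.25 ± 1.15% and 3.47 ± 0.982%, one of 1.42 ± 0.512 (adjusted p = 0.0858). Both were called without the 2 libraries that stood apart (1.21, adjusted p = 0.0324, and 1.55, adjusted p = 0.0473), and each was called when CPSF1 sh1 BR1 alone was left out. In the 10 kb table the test between lines called 0 of the 8 genes for LNCaP95 against LNCaP by edgeR (2.88% of all genes called, 1 of the 8 at an unadjusted p under 0.05), and SQLE alone for 22Rv1 against LNCaP (adjusted p = 0.0313; 1.2% of all genes) and against LNCaP95 (−2.79 ± 0.88, adjusted p = 0.042; 4.75%). The SQLE downstream reads in 22Rv1 were 1, 8 and 9 in controls against 7, 5 and 7 and 28, 13 and 9 with knockdown. Both SQLE differences rested on few reads, the first being lost without any of 7 libraries (adjusted p = 0.0563 to 0.111) and the second without any of 9 (adjusted p = 0.0561 to 0.164).

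**Figure D3:**
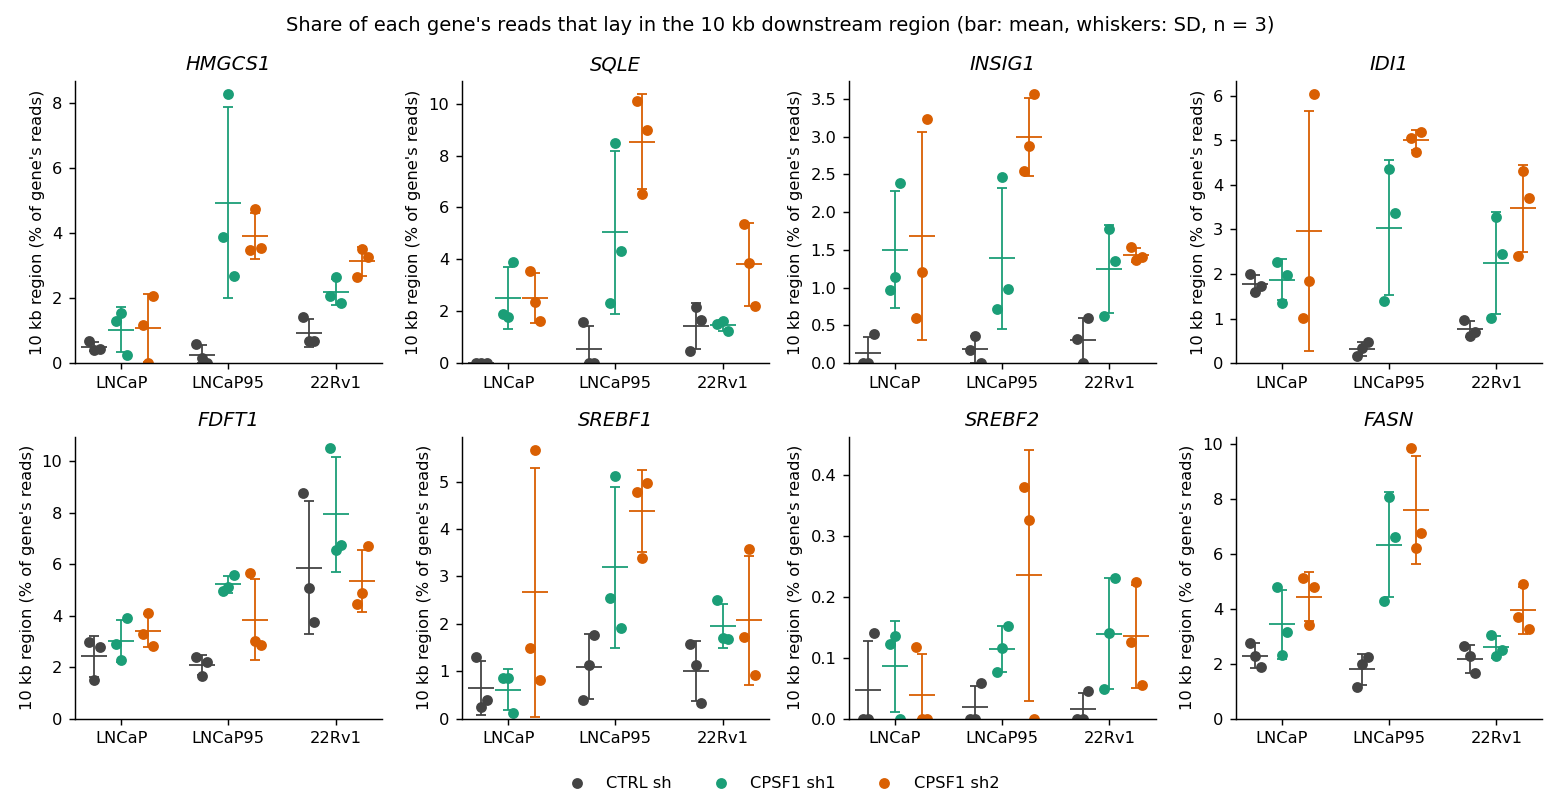
Share of each gene's reads that lay in its 10 kb downstream region (y axis, percent of the gene's reads in the 4 tables, from 0, scaled per panel) in each library, by line on the x axis and coloured by shRNA; points are libraries, bars means and whiskers SD (n = 3), cut at 0. In LNCaP95, HMGCS1 goes from 0.244% in controls to 4.93% and 3.91%, and IDI1 from 0.326% to 3.04% and 5.0%.

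The 2 hairpins were compared with each other for the same genes. In the 3′ UTR table edgeR called 0 of the 8 in each line (0.0363%, 0% and 0.0522% of all genes called in LNCaP, LNCaP95 and 22Rv1), with 2, 2 and 3 at an unadjusted p under 0.05. The differences of CPSF1 sh2 over CPSF1 sh1 furthest from 0 were −0.74 ± 0.244 for INSIG1 in LNCaP95 and −0.58 ± 0.126 for HMGCS1 in 22Rv1. INSIG1 was called when LNCaP95 CPSF1 sh1 BR2, its low library, was left out (−1.05, adjusted p = 0.00409), and HMGCS1 and INSIG1 of 22Rv1 were called without CTRL sh BR1 (−0.58, adjusted p = 0.00575, and −0.55, adjusted p = 0.0183). Of the genes tested in the 10 kb table, 0 of 7 (LNCaP), 0 of 8 (LNCaP95) and 1 of 8 (22Rv1) were called (0.119%, 0.00676% and 0.174% of all genes), with 1 at an unadjusted p under 0.05 in each line. The 22Rv1 gene was FDFT1 (−0.94, adjusted p = 0.0101), whose call was lost without any of 5 knockdown libraries (−1.07 to −0.77, adjusted p = 0.0547 to 0.435), CPSF1 sh1 BR1 and BR3 and all CPSF1 sh2 libraries.

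To place the 8 genes in their pathways, 53 further genes in 5 lists were counted in the 3′ UTR table, where 18.3%, 30.5% and 1.47% of all genes were called in LNCaP, LNCaP95 and 22Rv1. In LNCaP, 6 of 17 sterol synthesis genes rose and 2 fell (median 0.34, beside 0.02 over all genes), while 0 of 14 fatty acid synthesis genes rose and 5 fell (median −0.38). SC5D (0.96) and LSS (0.78) were among the former, and the desaturases FADS1 (−1.06) and FADS2 (−0.92) and the elongase ELOVL6 (−0.93) among the latter. In LNCaP95, 0 of 17 sterol genes rose and 6 fell (median −0.26), and 1 of 13 fatty acid genes tested rose and 7 fell (median −0.54), with SCD, the stearoyl-CoA desaturase, at −1.54 and ELOVL6 at 0.83. The sterol count lay near the share of all genes called in that line. Of 8 genes of SREBP control, 4 fell in LNCaP95 (median −0.16, beside 0.01 over all genes), C12orf49 (−1.79) and INSIG2 (−1.43) among them, and of 6 tested genes of sterol uptake and transport 4 fell (median −0.50), with STARD4 at −1.37. In 22Rv1, 0 of 17 sterol genes were called, though 16 had values below 0 (median −0.40, beside −0.01 over all genes), and SCD (−0.91) and NPC2 (−0.48) were the 2 of all 49 genes tested that fell. On the reads of the 4 tables summed, where 7.57% of all genes were called, 8 of the 17 sterol genes and 12 of 52 list genes tested fell in 22Rv1 and 0 rose. Without the 2 libraries that stood apart, 13 list genes fell and 1 rose in the 3′ UTR table. Calls over all genes then numbered 358 higher and 418 lower, so the 1.47% does not apply to that count. Genes of LXR response and sterol efflux were called in none of the 3 lines, with 4, 3 and 4 of 7 tested. NPC1, the lysosomal cholesterol exporter, rose in LNCaP (1.63) and differed in its change between LNCaP95 and LNCaP (−2.06, adjusted p = 5.7e-08) and between 22Rv1 and LNCaP (−1.77, adjusted p = 9.5e-06).

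**Figure D4:**
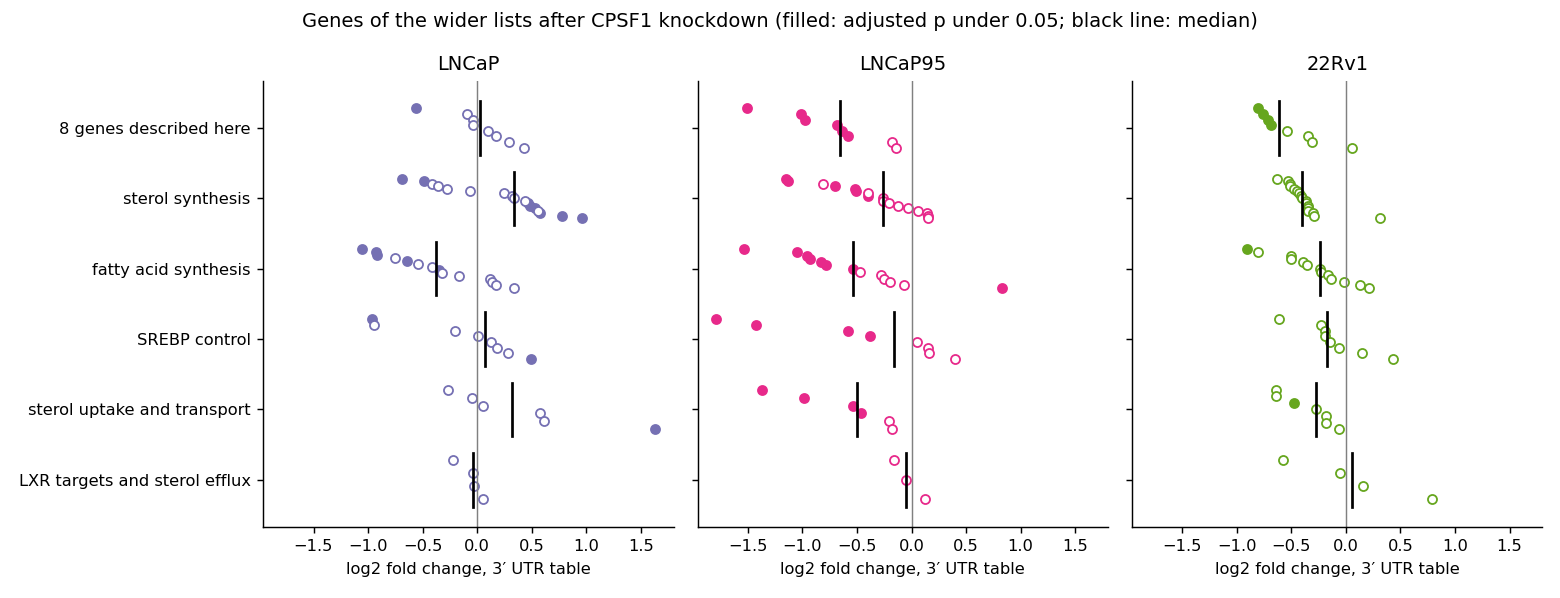
Log2 fold change after CPSF1 knockdown in the 3′ UTR table (x axis) for the genes of each list (y axis) in LNCaP, LNCaP95 and 22Rv1; each point is a gene, filled where adjusted p is under 0.05, and the black line is the list's median. The 8 genes have medians of 0.03, −0.66 and −0.62, and sterol synthesis genes of 0.34, −0.26 and −0.40.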

How the data were processed

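PAC-seq reads of 27 libraries were, per the submitters' processing notes, aligned to GRCh37 (hg19) with HISAT2 2.1.0 and counted with featureCounts of Subread 2.0.3. The tables deposited are raw counts, 4 per-gene tables (3′ UTR, intron, CDS and the 10 kb downstream), not normalized, with strand respected and the 3′-most base counted. Samples were grouped by cell line and shRNA from their titles. Each table was analysed with edgeR 4.0.16 (R 4.3.3, limma 3.58.1): genes with a mean above 2 CPM over the 9 libraries of a line, TMM scaling, the quasi-likelihood F-test and Benjamini-Hochberg adjustment over all genes tested, with calls at 0.05. SE is the log2 fold change divided by the root of F. Ratios between regions were tested by a region-by-knockdown term beside terms for library and region, and differences between lines with line by knockdown terms over the 27 libraries. Alternatives were DESeq2 1.42.0, other scaling and filters, each shRNA alone, a replicate block and each library left out. Depth limits low counts, and intervals and the floor of 3 reads cover counting error only. On simulated counts for the LNCaP95 3′ UTR comparison (11277 genes, 200 changed), 70% of changes of log2 1 and 99% of log2 3 were recovered, and for its 10 kb comparison (14787 genes) 4% and 64%. The genes and lists were chosen with earlier results of these data known. The text names all 8 genes, CPSF1 and, per comparison, up to 4 list genes in each direction with the largest called change. Some list genes are not reported here.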

Additional observations from a re-analysis of the deposited data

Results flagged for a closer look

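Among 47 groups of 6 knockdown libraries examined for a library far from the rest, of which chance flags about 1 in 20, 2 held one. IDI1 had 87.4 CPM in the 3′ UTR table in LNCaP95 CPSF1 sh1 BR1, against 43.0 to 56.5 CPM in the other 5. SREBF2 had 182.2 CPM in LNCaP95 CPSF1 sh1 BR2, against 223.7 to 241.9 CPM.

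The knockdown change differed between lines by the interaction test (edgeR) for several genes of the 3′ UTR table. For LNCaP95 over LNCaP the differences were −1.51 for INSIG1, −1.25 for FDFT1, −1.06 for IDI1, −0.91 for FASN and −0.76 for HMGCS1. For 22Rv1 over LNCaP they were −1.09 for IDI1, −1.02 for FDFT1 and −0.91 for HMGCS1. For 22Rv1 over LNCaP95 they were 1.08 for FASN and 0.84 for INSIG1. In the 10 kb table SQLE was flagged for 22Rv1 over LNCaP (a fitted −6.21, which is no bound because the LNCaP controls held 0 reads) and for 22Rv1 over LNCaP95 (−2.79).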

How the results depend on the processing

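Of the counts of the 8 genes called, 167 recomputed under other settings stayed within 1.5 times the main count and 26 did not; with single libraries left out, 379 did and 53 did not. The cause was not tested. With CPSF1 sh1 alone the count was 3 in the LNCaP and 0 in the 22Rv1 3′ UTR table, 1 in the 22Rv1 intron table, 1 and 0 in the LNCaP95 and 22Rv1 10 kb tables, and 2 and 0 for the LNCaP95 10 kb and intron ratios. With CPSF1 sh2 alone it was 1 in the LNCaP 10 kb table, 1 and 2 for the 10 kb ratio of LNCaP and 22Rv1, and 0 for the LNCaP intron ratio. With libraries scaled by the reads of the 4 tables, with or without 3′ UTR TMM factors, it was 1 in the 22Rv1 intron table, and 6 and 0 in the LNCaP95 and 22Rv1 10 kb tables; with those factors it was 8 and 3 for the 10 kb ratio of LNCaP95 and 22Rv1, 2 and 0 for the intron ratio of LNCaP and LNCaP95, and 2 for the 10 kb difference of 22Rv1 over LNCaP95. In the LNCaP 10 kb table it was 1 by DESeq2 and 0 with genes above 2 CPM in every library. Without the 2 22Rv1 libraries that stood apart it was 2 for the 22Rv1 10 kb ratio and 1 for the 3′ UTR difference of 22Rv1 over LNCaP95. In the LNCaP95 10 kb table FDFT1 reversed to 0.10 without TMM factors, and FASN from −0.01 to 0.93 with and 1.07 without them.

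With 1 library left out, the counts for LNCaP, LNCaP95 and 22Rv1 ranged from 1 to 2, 6 to 6 and 0 to 5 in the 3′ UTR table, 2 to 3, 5 to 7 and 1 to 4 in the intron table, 1 to 2, 2 to 3 and 1 to 1 in the 10 kb table, and 1 to 3, 6 to 7 and 3 to 7 over the 4 tables. They ranged from 0 to 2, 4 to 5 and 0 to 2 for the 10 kb ratio and 0 to 1, 0 to 2 and 0 to 0 for the intron ratio. Between controls they were 5 to 6, 5 to 8 and 6 to 7. For differences of the knockdown change they were 5 to 5, 3 to 4 and 1 to 2 in the 3′ UTR table and 0 to 0, 0 to 1 and 0 to 2 in the 10 kb table. Between hairpins they were 0 to 0, 0 to 1 and 0 to 2, and 0 to 0, 0 to 0 and 0 to 1.

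Scaling moved the split of all calls. With libraries scaled by all reads and 3′ UTR factors, the higher share of calls went from 46.2% to 21.4% in 22Rv1 and 50.1% to 36.9% in LNCaP95 (3′ UTR table), from 60.7% to 22.5% in LNCaP and 60% to 95.5% in 22Rv1 (intron table), from 53.4% to 34.1% in LNCaP and 56% to 28.6% in 22Rv1 (CDS table), and from 64.7%, 63.4% and 72.6% to 94.3%, 95.6% and 97.9% for LNCaP, LNCaP95 and 22Rv1 (10 kb table). Without TMM factors it was 67.9% in the LNCaP 3′ UTR table. All 22Rv1 3′ UTR calls numbered 78 higher and 91 lower, and 358 and 418 without the 2 libraries that stood apart.

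The BR numbers did not pair the libraries: same-numbered deviations correlated at −0.40 to 0.27 (LNCaP), −0.32 to 0.26 (LNCaP95) and −0.26 to 0.58 (22Rv1), and 2, 2 and 4 of 9 libraries correlated best with their own number. With the replicate block the 3′ UTR counts were 1, 6 and 3, INSIG1 of 22Rv1 being at −0.71 (edgeR adjusted p = 0.0583).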

Other observations

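Over the 27 libraries, the genes whose 3′ UTR levels (log2(CPM + 1)) were most like those of HMGCS1 among 8804 genes were ALDH3A2 (Pearson r = 0.958), TMSB10 (0.948), TNNT1 (0.945), RP11-826N14.2 (0.945) and BEX1 (0.942). FDFT1 stood at 0.901, IDI1 at 0.844, SREBF2 at 0.796, SQLE at 0.483, INSIG1 at 0.318, FASN at −0.229 and SREBF1 at −0.710. The genes most like FASN were CKB (0.893), PRR11 (0.826), EFNA1 (0.824), NUPR1 (0.812) and DNAJB1 (0.807). Of the genes followed here, INSIG1 was nearest to FASN (0.595) and HMGCS1 furthest from it (−0.229). The libraries fall into 3 lines, so these values describe mostly differences between lines and carry no p.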
